A study of Homo sapiens with 6 samples.

Results

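The clade B serpins examined here were SERPINB1, SERPINB2, SERPINB3, SERPINB4, SERPINB5, SERPINB6, SERPINB8 and SERPINB10. They were found by the Ensembl gene ID that each isoform of the deposited count table carries. Of the 8 genes, 6 had rows, with 44 of the 63224 isoform models and 7446 of the 6868634 reads of the series. SERPINB3 and SERPINB4 had none. In cells with U2AF1 S34F, SERPINB2 was 10.1-fold and SERPINB1 3.97-fold lower than in wild-type cells. SERPINB2 here includes the reads labelled SERPINB10, which are 3454 of its 3690 reads. Both genes were called with a term for the B1/B2 mark of the libraries in the fit. Neither was called without this term or with the libraries of isolate 2 summed. SERPINB5, SERPINB6 and SERPINB8 did not pass the test. No change in the choice of acceptors, 3′ ends or isoforms was called in any member.

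Serpins are protease inhibitors that work as bait. The protease cuts an exposed loop of the serpin, and the serpin then folds around the enzyme and traps it in a covalent complex. Clade B members lack a classical signal peptide and act mostly inside cells, where they guard against the cell's own or neighbouring proteases, and their genes lie in clusters on chromosomes 6 and 18. In epithelia they are known for control of neutrophil proteases, plasminogen activation and cysteine cathepsins.

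Poly(A) RNA of HBEC3kt cells, an immortalised line from human bronchial epithelium, was copied into full-length cDNA and read on a nanopore sequencer. There were 3 wild-type libraries and 3 libraries from cells with the S34F variant of U2AF1, a splicing factor that contacts the AG at intron ends. S34F puts phenylalanine in place of a serine, and the comparison asks what this does to RNA processing. In each genotype, replicate 1 was isolate 1 and replicate 2 was isolate 2, both marked B1, while replicate 3 was isolate 2 again, marked B2. All cells were of the same line and no treatment is labelled. How the isolates were made, and what B1 and B2 stand for, is not stated in the labels.

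Libraries held 451540 to 1720292 assigned reads, and the mean was 1530324 for wild-type against 759221 for S34F. Reads at loci without a gene ID made up 8.22% to 9.86% of the B1 libraries and 17.47% to 19.01% of the B2 libraries. All 10 basal epithelial markers on the list were read, and none of 9 secretory and ciliated markers had a row. Of 8 leukocyte markers 2 had rows, CD68 and CD14, while PTPRC had none, and of 9 fibroblast markers only VIM did. Since 2 of the 3 replicates per genotype are the same isolate, p-values measure the spread between these libraries, which may be technical. Values are means ± SD in TMM-scaled CPM (reads per 1000000 library reads, n = 3). Log2 fold changes are S34F against wild-type from edgeR's quasi-likelihood test, with adjusted p by the Benjamini-Hochberg method over all genes tested. Folds of genes given without log2 are instead the mean CPM of wild-type over that of S34F. The SE was derived from the test, as the size of the log2 fold change over the square root of the F statistic.

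Before any level could be read, the SERPINB10 label had to be checked, because SERPINB10 lies next to SERPINB2 on chromosome 18. SERPINB10 (bomapin) is known as a serpin of blood-forming cells. The deposited table gave this label (ENSG00000242550.1) to 11 models with 3454 reads, 46.39% of all reads on the members. The SERPINB2 label (ENSG00000197632.4) was on 3 models with 236 reads. In build hg19, both sets of models span chr18:61554935-61571113 on the plus strand. Each of the 11 SERPINB10-labelled models had at least 50% of its exon bases on exons of the SERPINB2-labelled models. By this rule, 3454 of 3454 reads (100%) lay on SERPINB2.

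Overlap was set per model and not per read, so the share in each library follows from the models. The wild-type replicates had 1236 of 1236, 502 of 502 and 1547 of 1547 such reads on SERPINB2, and the S34F replicates had 17 of 17, 31 of 31 and 121 of 121. At a stricter overlap of at least 90%, 8 of the 11 models and 3007 reads (87.06%) still passed. The 3 that did not hold an extra exon of 258 bases or a retained intron within SERPINB2. All 4 labelled models with an annotated transcript ID belong to SERPINB2 in GENCODE 29. None of the 4 SERPINB10 transcripts of that annotation was in the count table, and 2 of those 4 start inside SERPINB2. Of the 11 models, 0 ran past the last base of the SERPINB2-labelled models. GENCODE 29 places 12 distinct SERPINB10 exon entries past the end of its own SERPINB2 transcripts. These are counted over all 4 SERPINB10 transcripts, so versions of the same exon can count more than once. Both labels are therefore given together below as SERPINB2, beside their separate values.

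**Figure D1:**
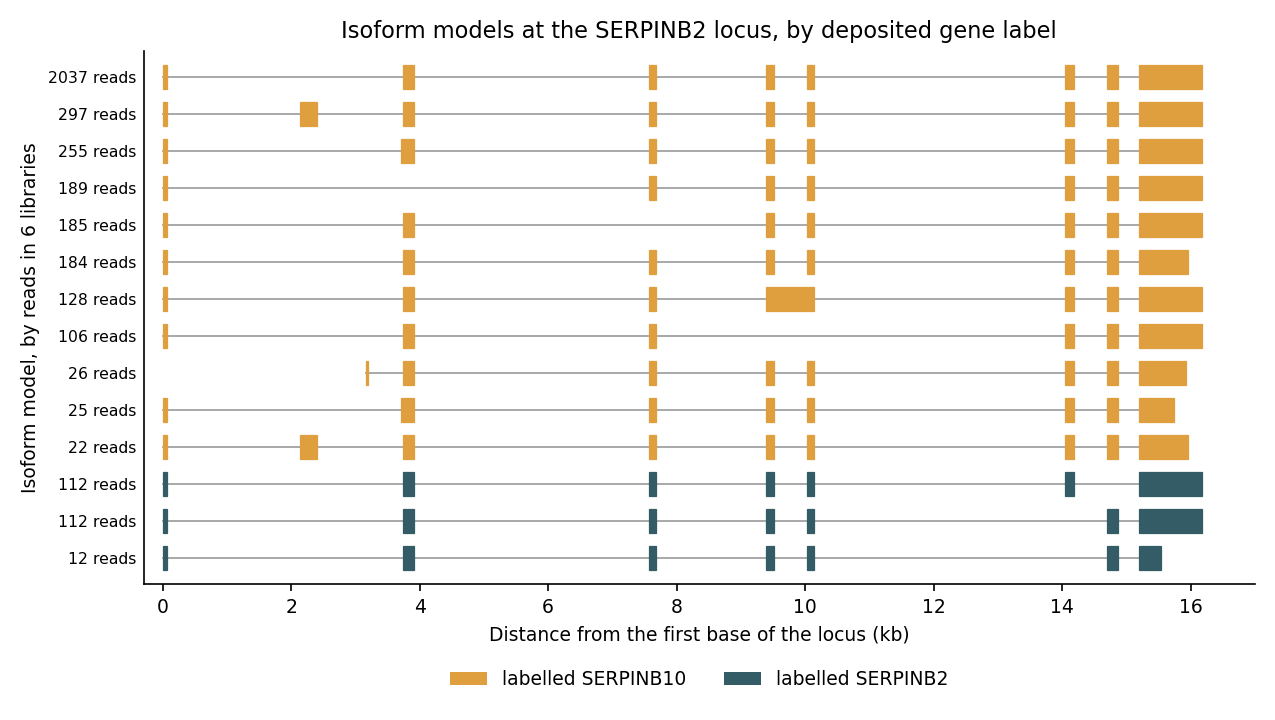
Exons (boxes) of the 14 isoform models at the SERPINB2 locus, drawn by distance from the first base of the locus in kb, with the reads of each model in all 6 libraries at the left. The 11 models labelled SERPINB10 and the 3 labelled SERPINB2 cover the same stretch and end at the same last exon.

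SERPINB2, also called plasminogen activator inhibitor type 2, inhibits urokinase and tissue plasminogen activator. Its summed reads were 1310, 552 and 1650 in wild-type replicates 1, 2 and 3, and 17, 34 and 127 in the S34F replicates. Scaled for depth, these were 780, 468 and 981 CPM against 27.9, 72.2 and 120 CPM. The lowest wild-type library was above the highest S34F library. The mean fell from 743 ± 259 to 73.4 ± 46.0 CPM, 10.1-fold (log2 fold change -3.43 with SE 0.39, edgeR adjusted p = 0.000198). Within pairs of like number, the log2 ratio was -4.80 for isolate 1, -2.70 for isolate 2 in B1 and -3.03 for isolate 2 in B2. The labels do not say that isolates of like number were matched between genotypes. In these bulk libraries, fewer cells that make a transcript and less of it per cell cannot be told apart.

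Taken by its own label, SERPINB10 had 736, 426 and 920 CPM in wild-type and 27.9, 65.8 and 114 CPM in S34F libraries. The log2 fold change was -3.41 (SE 0.39, edgeR adjusted p = 0.000175). The reads labelled SERPINB2 gave 44.1, 42.4 and 61.3 CPM against 0, 6.37 and 5.67 CPM, with a log2 fold change of -3.63 (SE 0.51, edgeR adjusted p = 0.000907). The genotypes did not overlap under either label. S34F replicate 1 had 0 reads under the SERPINB2 label while it had 17 under the other, so the label alone would give this gene as unread there.

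**Figure D2:**
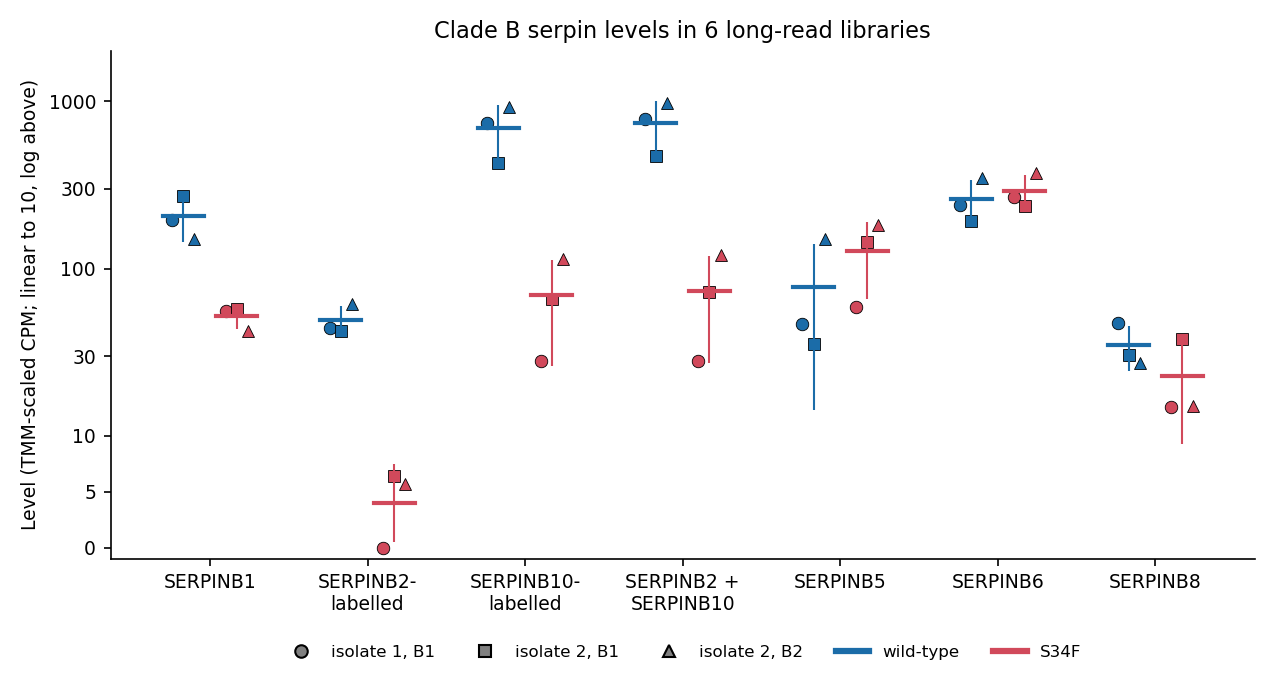
Level of each clade B serpin with rows in CPM, on an axis that is linear to 10 and logarithmic above, with a symbol for each library and bars for the mean and SD of 3 libraries per genotype. SERPINB1 and SERPINB2, under either label or summed, lie lower in all 3 S34F libraries than in any wild-type library, and the other genes overlap.

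SERPINB1 (ENSG00000021355.8, chr6:2832567-2842193, minus strand) inhibits the neutrophil proteases elastase, proteinase 3 and cathepsin G. It had 194, 273 and 151 CPM in wild-type libraries and 55.8, 57.3 and 42.5 CPM in S34F libraries. All 3 S34F libraries were below all 3 wild-type libraries. The mean fell from 206 ± 61.9 to 51.9 ± 8.17 CPM, 3.97-fold (log2 fold change -1.97 with SE 0.28, edgeR adjusted p = 0.00122). The ratio was of like size in each numbered pair, at -1.80, -2.25 and -1.83 on the log2 scale.

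By label, 3 of the 6 members with rows were called, all lower in S34F cells, beside 3.24% of the 7033 genes and loci tested (2.13% called lower). The groups of the same 3 did not overlap, which held for 7.95% of those tested in the lower direction. Of these 3, 2 are labels of the SERPINB2 locus. The members were chosen with earlier results of these data known, so these shares are no test of the group. The median log2 fold change was -1.33 over the 6 members, which counts the SERPINB2 locus under each of its labels, and 0.02 over all tested. Counting SERPINB10 reads as SERPINB2 leaves 2 genes of 5. The log2 fold changes were -3.43 for SERPINB2 with both labels and -1.97 for SERPINB1. They were -0.69 for SERPINB8, 0.18 for SERPINB6 and 0.90 for SERPINB5, so the fall was not shared by all members. Without the B1/B2 term in the fit, none of the 6 was called (3 had an unadjusted p below 0.05). With the libraries of isolate 2 summed to leave 2 samples per genotype, none was called either (3 below 0.05). SERPINB1 then had edgeR adjusted p = 0.134 and 0.855 in turn, and SERPINB2 with both labels 0.122 and 0.636, at nearly the same fold changes (-1.99 and -1.95, -3.33 and -3.54).

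As SERPINB1 and SERPINB2 were both lower, the 250 bases before the start of each are shown. They are from RefSeq in build GRCh38.p14, SERPINB1 at chr6:2841864-2842113 (minus strand) and SERPINB2 at chr18:63887455-63887704 (plus strand). SERPINB1 models with the full chain start at 2842193 or 2842094 in hg19, so part of its stretch may be exon 1 in some of them. Capitals mark TGANTCA (N is any base), a loose form of the AP-1 motif. As a pattern it reads alike on both strands.
SERPINB1 upstream: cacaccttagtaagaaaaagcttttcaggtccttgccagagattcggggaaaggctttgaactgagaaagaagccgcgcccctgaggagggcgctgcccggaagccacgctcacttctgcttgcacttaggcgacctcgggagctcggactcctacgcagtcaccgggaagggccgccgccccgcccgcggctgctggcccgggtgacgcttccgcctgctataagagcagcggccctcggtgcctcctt
SERPINB2 upstream: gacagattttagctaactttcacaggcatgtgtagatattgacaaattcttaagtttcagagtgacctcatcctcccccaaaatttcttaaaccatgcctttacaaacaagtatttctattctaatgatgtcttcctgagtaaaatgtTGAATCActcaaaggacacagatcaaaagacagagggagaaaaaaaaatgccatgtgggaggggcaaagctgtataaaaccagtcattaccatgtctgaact

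In windows from 250 bases before to 50 after the start, TGANTCA was found 1 time for SERPINB2, 102 bases before the start, and 0 times for SERPINB1. It was found 1 time for SERPINB5 (146 bases before) and 2 times for SERPINB8 (185 and 28 bases before), genes that did not pass the test. The windows of SERPINB3, SERPINB4 and the 4 starts of SERPINB6 held none. Of 35116 promoters of that length, 7.71% hold the motif, and 7 of the 8 members had an entry (not SERPINB10). A match is letters only, so nothing on binding was read from it.

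SERPINB5 (ENSG00000206075.9, chr18:61144192-61172318, plus strand), known as maspin, is an epithelial serpin that does not inhibit proteases. It had 46.5, 35.6 and 150 CPM in wild-type libraries and 59.1, 144 and 181 CPM in S34F libraries. The genotypes overlapped, and the B2 library of wild-type cells was above 2 of the S34F libraries. The means were 77.3 ± 63.1 and 128 ± 62.7 CPM, and the difference did not pass the test (log2 fold change 0.90, SE 0.35, edgeR adjusted p = 0.201). The log2 ratio in numbered pairs was 0.35, 2.02 and 0.27. As the labels do not say that like numbers were matched, these ratios set no isolate apart. Without S34F replicate 1, SERPINB5 was called higher (log2 fold change 1.08, edgeR adjusted p = 0.0164).

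Another 126 reads sat at a locus without a gene ID that joins the first SERPINB5 exon straight to the last. Both its splice sites are those of SERPINB5. With these reads, the levels were 50.6, 41.6 and 180 CPM against 77.2, 168 and 219 CPM. The log2 fold change was 0.98 (edgeR adjusted p = 0.152), and 1.12 (edgeR adjusted p = 0.0101) without S34F replicate 1. A 1-exon model without a gene ID also lay on the same strand within SERPINB5, with 58 reads, 37 of them in wild-type replicate 3. Loci without a gene ID on the opposite strand overlapped SERPINB5, SERPINB6 and SERPINB8, each with at most 30 reads, and it is not stated whether the counting used strand.

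SERPINB6 (ENSG00000124570.13, chr6:2948394-2971819, minus strand) is made in many tissues and inhibits cathepsin G. Its levels were 239, 192 and 346 CPM in wild-type and 266, 238 and 371 CPM in S34F libraries. The ranges lay almost on each other, with the B2 library highest in both genotypes. The means were 259 ± 78.8 and 292 ± 70.3 CPM (log2 fold change 0.18 with SE 0.27, edgeR adjusted p = 0.795).

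SERPINB8 (ENSG00000166401.9, chr18:61637264-61654630, plus strand) inhibits the proprotein convertase furin. It was read 204 times in all, at 47.1, 30.5 and 27.4 CPM in wild-type and 14.8, 38.2 and 15.1 CPM in S34F libraries. S34F replicate 2 was within the wild-type range while the other S34F libraries were below it. The means were 35.0 ± 10.6 and 22.7 ± 13.4 CPM (log2 fold change -0.69 with SE 0.38, edgeR adjusted p = 0.381).

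SERPINB3 and SERPINB4, near-identical neighbours known as the squamous cell carcinoma antigens, inhibit cysteine cathepsins and chymase-like proteases. None of their 6 GENCODE 29 transcripts was in the table, and 0 models lay between SERPINB5 and SERPINB7. The table lists isoforms with at least 1 read, and how they were filtered is not stated, so this sets no upper limit on their level. Of the other clade B genes on the list (SERPINB7, SERPINB9, SERPINB11, SERPINB12, SERPINB13), only SERPINB7 had a row. It had 24 reads in wild-type and 11 in S34F libraries, too few to test.

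The long reads also show which exons each transcript joined. For SERPINB2, both labels together gave 14 models, and the exon chain of the annotated transcript ENST00000299502.4 took 2221 of 3690 reads (60.2%). Another 610 reads (16.5%) in 5 models skipped a single exon. Models skipping exon 2 (177 bases) had 189 reads and those skipping exon 3 (120 bases) had 185 reads. The exons of 143 and 165 bases before the last exon were skipped in 124 and 112 reads, and it is these reads that carry the SERPINB2 label. The exons of 177, 120 and 165 bases are multiples of 3 and the exon of 143 bases is not. An extra exon of 258 bases after exon 1 was in 319 reads (8.64%), and a retained intron of 507 bases was in 128 (3.47%).

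These forms were lower in S34F cells side by side. The most read model had 465, 225 and 530 CPM in wild-type and 16.4, 53.1 and 61.4 CPM in S34F libraries, without overlap (log2 fold change -3.30, edgeR adjusted p = 3.79e-05). The model with the extra exon had 57.8, 45 and 77.9 CPM against 3.29, 2.12 and 12.3 CPM, a log2 fold change of -3.35 (edgeR adjusted p = 4.78e-05). The model with the retained intron had 19.7, 22.9 and 38.1 CPM, against 0, 0 and 3.78 CPM. All 8 tested models under the SERPINB10 label fell (log2 fold changes -4.09 to -2.96), and so did both tested models under the SERPINB2 label (-3.16 and -4.16). Over the members, 15 of 20 tested models were called, all lower, beside 4.26% of the 13961 models tested (2.91% called lower). The called models were 5 of SERPINB1, 8 labelled SERPINB10 and 2 labelled SERPINB2, and 0 of SERPINB5, SERPINB6 or SERPINB8. Models of a gene share its level, so these calls are not separate from the falls of SERPINB1 and SERPINB2. Without the B1/B2 term, and with isolate 2 summed, none of the member models was called (16 and 17 had an unadjusted p below 0.05). The annotated chain took 64.6%, 52.0% and 59.5% of the SERPINB2 reads in wild-type and 64.7%, 73.5% and 55.1% in S34F libraries, and these shares overlapped.

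SERPINB1 had the most models, 16 with 1008 reads. The exon chain of ENST00000380739.5 took 498 reads (49.4%) in 4 models that differ in their ends. A model of the last 2 exons alone had 177 reads (17.6%), and 4 models with an extra exon of 260 or 132 bases had 135 (13.4%). The most read model had 32.8, 50.9 and 26.2 CPM in wild-type and 8.21, 14.9 and 9.45 CPM in S34F libraries (log2 fold change -1.77, edgeR adjusted p = 0.0130). The model of the last 2 exons had 36.3, 54.3 and 22.6 CPM against 9.86, 6.37 and 4.72 CPM, a log2 fold change of -2.42 (edgeR adjusted p = 0.00122). Neither overlapped between genotypes. Of 6 tested models 5 were called lower, and the remaining tested model had a log2 fold change of -1.41 (edgeR adjusted p = 0.0594). Of the 15 called models of the members, 11 were called in all 6 runs that left out a library, and the other 4 were all of SERPINB1, of which 1 fell under the filter and was not tested in 3 of the runs.

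The annotated chain of SERPINB1 took 48.5%, 47.2% and 50.4% of its reads in wild-type libraries. In S34F libraries it took 58.8%, 55.6% and 55.6%. The ranges do not overlap, but the S34F shares rest on 34, 27 and 45 reads. How often such shares do not overlap over all genes was not counted. Isoform usage of SERPINB1, tested over its 6 models within the gene, had a Simes adjusted p of 1.0 in edgeR (unadjusted 0.561).

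**Figure D3:**
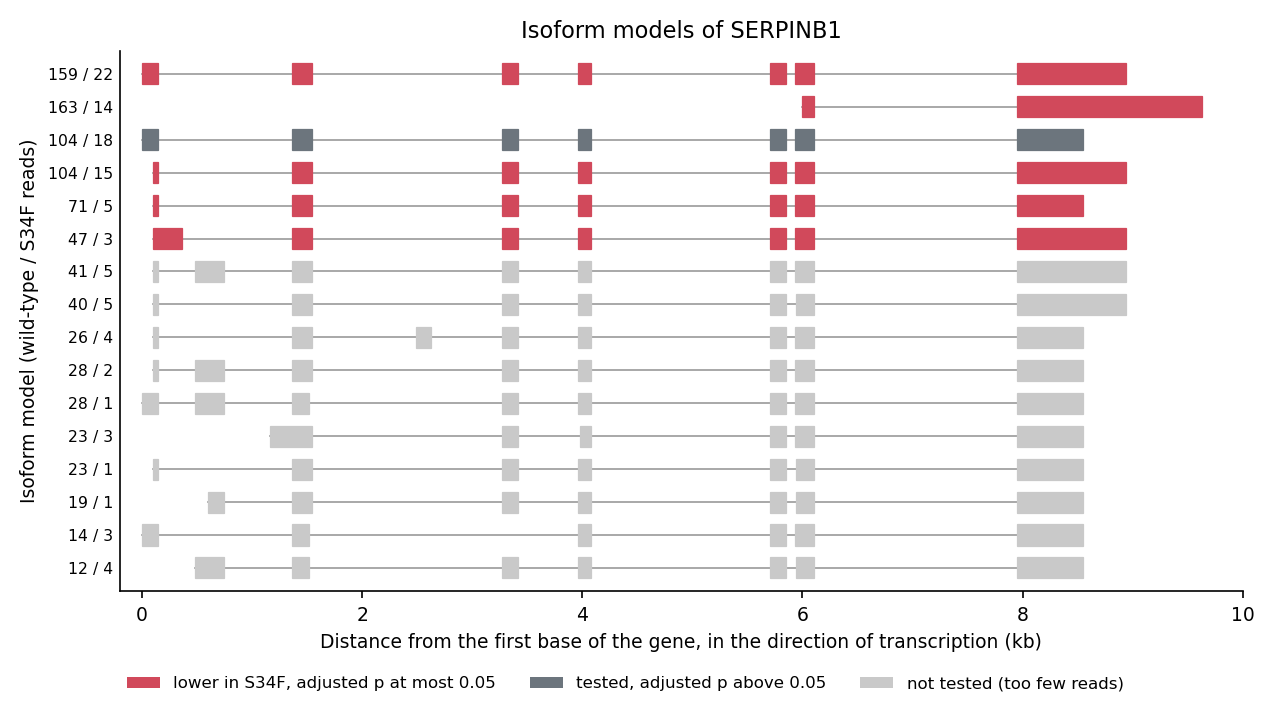
Exons (boxes) of the 16 isoform models of SERPINB1, drawn by distance in kb from the first base in the direction of transcription, with wild-type and S34F reads at the left and colour for the isoform test. The 5 models called lower include chains with all exons and the model of the last 2 exons, and no model was called higher.

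SERPINB5 reads followed the annotated chain in 422 of 668 cases (63.2%), and a model that skips exon 2 (175 bases, not a multiple of 3) had 171 (25.6%). The chain had 34, 21.2 and 88.0 CPM in wild-type and 37.8, 106 and 112 CPM in S34F libraries. The skipping model had 7.75, 8.48 and 44.0 CPM against 13.1, 27.6 and 50.1 CPM. Both overlapped between genotypes, with log2 fold changes of 0.93 and 0.68 (edgeR adjusted p = 0.225 and 0.437). A short form that ends 9 kb into the gene after an extended exon 2 had 30 reads, 24 of them wild-type and 6 S34F. Its share was 6.41%, 4.76% and 6.75% in wild-type and 2.78%, 1.47% and 2.08% in S34F libraries (1, 1 and 4 reads). These do not overlap, but this share was not tested and non-overlap was not counted over all genes. SERPINB6 reads were almost all on a single model of 7 exons, 1836 of 1876 (97.9%), whose log2 fold change was 0.14 (edgeR adjusted p = 0.883). SERPINB8 had 6 models that differ in the donor of the first exon and the acceptor of the last, and 85 of 204 reads (41.7%) had the chain of ENST00000397985.2.

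Since U2AF1 acts at the acceptor, reads were then compared by the acceptor joined to each donor. Of 12 tested donors in the members, 0 were called by edgeR and 0 had an unadjusted p below 0.05. In all, 1.72% of 8181 donors were called. The first donor of SERPINB2 had the most choices. It was joined to exon 2 in 2876 reads, to the extra exon in 319, to an acceptor 32 bases before that of exon 2 in 280, and to exon 3 in 189. The share that went to exon 2 was 79.7%, 76.4% and 78.5% in wild-type and 70.6%, 88.2% and 73.0% in S34F libraries. The S34F values lie on both sides of the wild-type values, and S34F replicate 1 has 17 reads (edgeR adjusted p = 0.916). The smallest p in this gene was at the donor before the exon of 143 bases (position 61565078), and it did not pass (edgeR adjusted p = 0.739). That exon was skipped in 3.13%, 4.86% and 3.44% of wild-type reads (40, 26 and 55 reads) and in 0%, 2.94% and 1.65% of S34F reads (0, 1 and 2 reads). The shares did not overlap, but how often this holds over all donors was not counted.

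The first donor of SERPINB5 was joined to exon 2 in 497 reads, to exon 3 in 171 and to the last exon in 126. Exon 2 took 76.5%, 65.3% and 58.9% in wild-type and 59.6%, 69.6% and 59.9% in S34F libraries, and the genotypes overlapped (edgeR adjusted p = 0.928). The smallest p in SERPINB5 was at the donor of exon 2 (position 61151829, edgeR adjusted p = 0.883). In SERPINB1, exon 1 was joined to an extra exon in 15.5% ± 4.90 of wild-type and 10.3% ± 3.57 of S34F reads, which was its smallest p (edgeR adjusted p = 0.739). No donor of SERPINB6 had an acceptor choice among the 12.

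**Figure D4:**
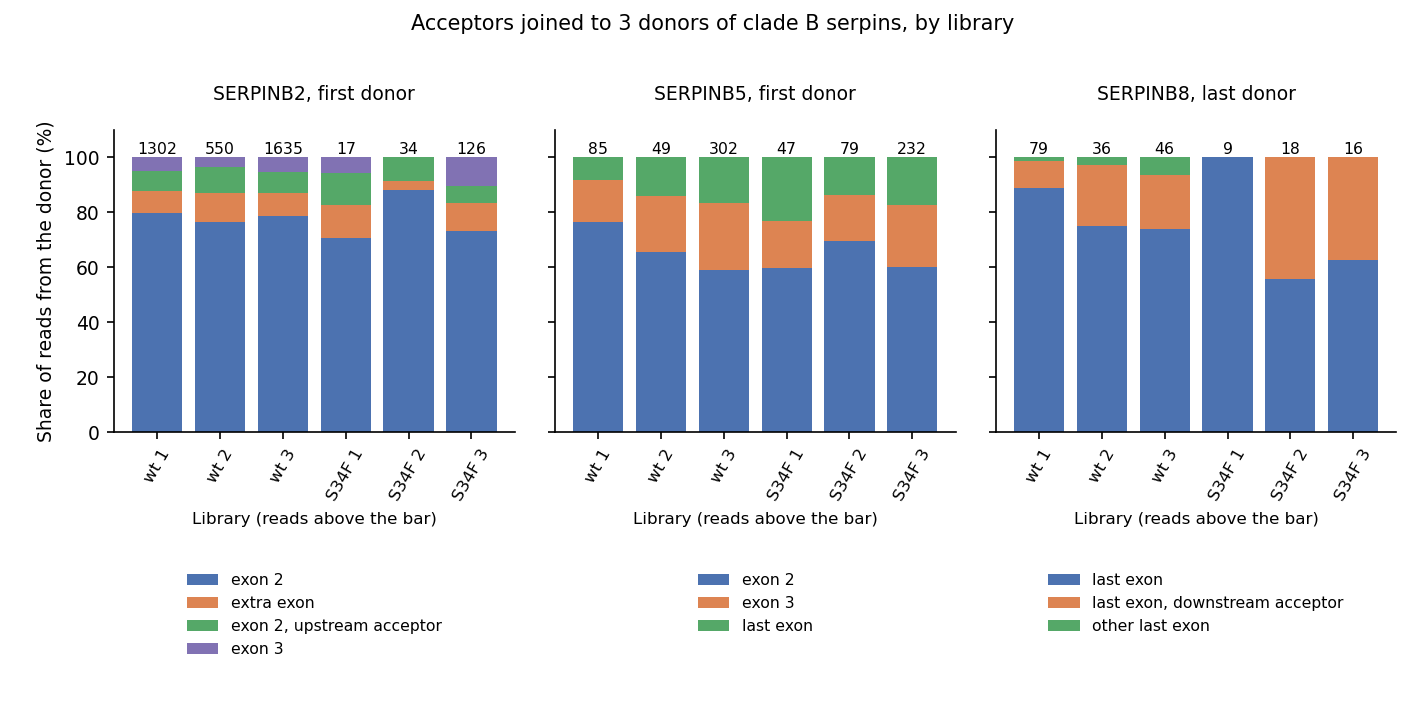
Share in percent of the reads from a donor that joined each acceptor, by library, with the number of reads above each bar, for the first donors of SERPINB2 and SERPINB5 and the last donor of SERPINB8. The shares of SERPINB2 and SERPINB5 overlap between genotypes, and the SERPINB8 bars of S34F libraries rest on 9, 18 and 16 reads.

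In 4 exons the reads used a pair of acceptors within the exon. Their first bases are shown because they place the second AG, read from GENCODE 29 transcripts matched by transcript ID, exon order and lengths. Capitals mark the bases left out when the second acceptor is used.
SERPINB8 last exon: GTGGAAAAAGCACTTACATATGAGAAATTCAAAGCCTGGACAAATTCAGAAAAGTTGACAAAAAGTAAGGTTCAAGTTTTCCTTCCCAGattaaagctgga
SERPINB1 exon 4: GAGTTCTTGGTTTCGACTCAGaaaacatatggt
SERPINB1 exon 6: AAAGacagaaaaactgtgaaaatgatgtat
SERPINB5 exon 6: ACAGacaccaaaccagtgcagatgatgaac

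The second acceptor follows CAG in SERPINB8, in exon 4 of SERPINB1 and in SERPINB5, and AAG in exon 6 of SERPINB1. In exon 6 of SERPINB1 (donor 2836342, acceptors 2836257 and 2836253, 4 bases apart), the second acceptor took 15.5%, 13.6% and 8.33% of reads in wild-type and 14.3%, 4.17% and 15% in S34F libraries (105 of 831 reads in all, edgeR adjusted p = 0.997). The genotypes overlapped. In exon 4 of SERPINB1 the second acceptor, 21 bases on, had 26 reads against 788. In exon 6 of SERPINB5, also 4 bases on, it had 21 against 617. Neither passed the test (edgeR adjusted p = 0.999 and 0.928).

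In the last exon of SERPINB8 (chr18, donor 61652479, acceptors 61654108 and 61654197, 89 bases apart), the second acceptor took 10.1%, 22.2% and 19.6% of reads in wild-type libraries. It took 0%, 44.4% and 37.5% in S34F libraries. Pooled over libraries this was 25 reads (15.5%) in wild-type and 14 reads (32.6%) in S34F, and S34F replicate 1 used it in 0 of 9 reads. S34F replicate 1 was below the minimum of 10 reads, so this donor had no test under the main rule. With the first acceptor set against all others, at a minimum of 5 reads its p was 0.129 (edgeR adjusted p = 0.670), and without S34F replicate 1 it was 0.0292 (edgeR adjusted p = 0.466).

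Isoform usage and 3′ ends gave no call either. Usage was tested in 4 members as labelled, and 0 were called (0 with an unadjusted p below 0.05), beside 0.615% of 2276 genes. The 3′ end was tested in 4 members and 0 were called (0 below 0.05), beside 0.854% of 2225 genes. SERPINB1 ended at 3 places, 2833257 with 441 reads, 2833643 with 390 and 2832567 with 177. The ends other than the most used took 62.3%, 53.4% and 53.5% in wild-type and 58.8%, 51.9% and 48.9% in S34F libraries (edgeR adjusted p = 0.972). With both labels taken as SERPINB2, the minor ends had 7.18%, 6.70% and 7.82% in wild-type and 5.88%, 0% and 6.30% in S34F libraries. These shares did not overlap, a trait not counted over all genes, and did not pass the test (edgeR adjusted p = 0.847). In S34F libraries they rest on 1 of 17, 0 of 34 and 8 of 127 reads of SERPINB2. Usage over 10 models had a Simes adjusted p of 1.0 (unadjusted 0.956). SERPINB5 and SERPINB6 used minor ends in 12.9% ± 3.33 and 2.53% ± 0.996 of wild-type reads, and in 10.6% ± 3.27 and 1.68% ± 0.715 of S34F reads.

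The proteases that clade B serpins inhibit, and other inhibitors, were read from lists chosen with the members. Of 14 serpins of other clades, 8 had rows and 4 were tested. SERPINA1, the alpha-1 antitrypsin gene that also inhibits neutrophil elastase, had 60.8, 23.8 and 34.5 CPM in wild-type and 13.1, 12.7 and 6.61 CPM in S34F libraries, and fell without overlap (log2 fold change -1.94, SE 0.44, edgeR adjusted p = 0.0251).

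Of 23 genes of target proteases and plasminogen activation, 12 had rows, 11 were tested, 1 was called higher and 0 lower. CTSV, a cysteine cathepsin of epithelia, rose to 91.6 ± 49.6 CPM in S34F cells from 25.6 ± 10.5 CPM, a log2 fold change of 1.84 (edgeR adjusted p = 0.0218). The targets of SERPINB2 did not pass. PLAU, urokinase, was at 120 ± 44.2 and 93.1 ± 56.6 CPM, a log2 fold change of -0.42 (edgeR adjusted p = 0.674). PLAT, tissue plasminogen activator, was at 12 ± 4.59 and 26.3 ± 11.8 CPM (log2 fold change 1.07, edgeR adjusted p = 0.215), and PLAUR, the urokinase receptor, at 177 ± 48.2 and 90.5 ± 44.9 CPM (log2 fold change -0.99, edgeR adjusted p = 0.128). FURIN, the target of SERPINB8, had a log2 fold change of -0.28 (edgeR adjusted p = 0.808). The neutrophil targets of SERPINB1 (ELANE, PRTN3, CTSG) had no row.

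Of 14 other epithelial protease inhibitors, 11 had rows and 10 were tested, with 1 called in each direction. PI3, which encodes elafin, a secreted inhibitor of neutrophil elastase, had 47.7, 137 and 48.2 CPM in wild-type and 14.8, 6.37 and 4.72 CPM in S34F libraries (log2 fold change -3.13, SE 0.49, edgeR adjusted p = 0.00195). TIMP3, an inhibitor of metalloproteases, rose to 49.4 ± 22.5 CPM in S34F cells from 9.83 ± 2.33 CPM, a log2 fold change of 2.25 (edgeR adjusted p = 0.00195). SLPI and SPINT1 had log2 fold changes of -1.57 and -1.09 and did not pass (edgeR adjusted p = 0.0802 and 0.0562). The median log2 fold change was -0.52 over the other serpins tested, -0.21 over the proteases and -0.03 over the other inhibitors.

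Cell type markers were read in the same libraries. The summed level of the 10 basal markers was 5200 to 6270 CPM in wild-type and 4860 to 8160 CPM in S34F libraries. LAMB3 alone of these was called (log2 fold change -1.39, edgeR adjusted p = 0.0290), and KRT5 did not pass (1.34, edgeR adjusted p = 0.0512). Of 12 squamous markers, 5 had rows and summed to 642 to 970 CPM against 627 to 792 CPM. KRT6B was called lower (-1.81, edgeR adjusted p = 0.0191), and IVL, SPRR1A and KRT13 had no row. The leukocyte markers summed to 60.2 to 79.2 CPM and 62.3 to 90.3 CPM, and the fibroblast markers to 130 to 201 CPM and 168 to 309 CPM. Their part in the falls of SERPINB1 and SERPINB2 was not tested.

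**Figure D5:**
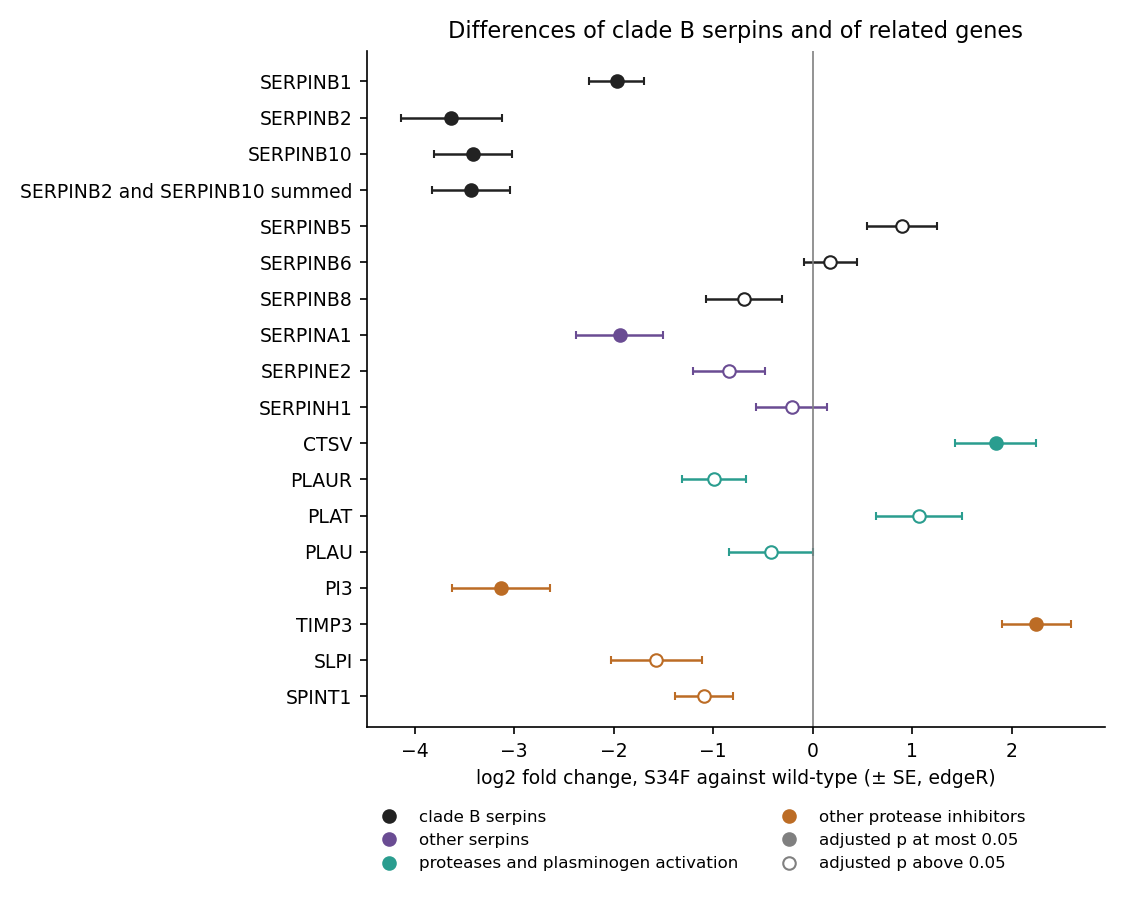
Log2 fold change of S34F against wild-type from edgeR, for the clade B serpins and for named genes of 3 related lists. Bars are the SE derived from edgeR's F statistic, and filled symbols mark an adjusted p of at most 0.05. SERPINB1 (-1.97), SERPINB2 with SERPINB10 (-3.43), SERPINA1 (-1.94) and PI3 (-3.13) are filled and below 0, as are both SERPINB2 labels alone, and TIMP3 (2.25) and CTSV (1.84) are filled and above 0.

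Genes with the pattern nearest to each member were found among 5947 tested genes, by the root mean square difference of log2 CPM centred per gene over the 6 libraries. Nearest to SERPINB1 were SAA1 (0.12) and RBCK1 (0.17), whose log2 fold changes were -1.90 and -1.99. SAA1 encodes the acute phase protein serum amyloid A1. Nearest to the reads labelled SERPINB10 were HBEGF (0.45), an EGF receptor ligand, and IL1B (0.50), and to those labelled SERPINB2 CSF3 (0.49) and HLA-DRB1 (0.50). PPP1CC (0.11) was nearest to SERPINB5, EZR (0.07) and ACTN1 (0.09) were nearest to SERPINB6, and ZC3H12A (0.15) and IFNGR2 (0.18) to SERPINB8. The match describes these 6 libraries, of which 4 come from the isolates numbered 2, and is no test.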

How the data were processed

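Long reads of 3 wild-type and 3 U2AF1 S34F libraries were compared. The deposited table holds whole-number counts, 1 row per isoform and 1 column per library, per the file headers, with no scaling by the authors. The submitters' processing notes name build hg19, while aligner, filters and strand use are not stated there or in the labels. Genotype and replicate came from the labels. The members and the gene lists were chosen with earlier results of these data known. All members were named, with their 2 most read models and up to 4 called ones, the donor and end with the smallest p, and called or else 2 list genes with the smallest p. Some genes this takes in are not reported here.

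Counts were summed per Ensembl gene (symbols for 10859 of 11034 IDs from GENCODE 29). That annotation was used for names, transcript membership, exon sequences and the place of its SERPINB10 transcripts relative to its SERPINB2 transcripts. It was not used for positions of the deposited models. Testing used edgeR 4.0.16 in R 4.3.3 with TMM scaling, filterByExpr (at least 10 reads, 15 in total), a B1/B2 term (3 residual degrees of freedom) and Benjamini-Hochberg adjustment at 0.05 over all features. Usage was tested with diffSpliceDGE. Acceptors per donor, and 3′ ends merged within 100 bases, were tested on 2 counts per library with library terms, given 10 reads in every library and 10 minor reads. Alternatives used DESeq2 1.42.0 and limma 3.58.1 (offset 0.5), other filters, scalings, designs and libraries. Counting the SERPINB5-joining locus as SERPINB5, and repeating the fits with these and the SERPINB10 rows relabelled, was chosen after seeing the data. Reads were counted as deposited, and PCR copies are not told apart. Simulated libraries were drawn with 4-fold changes of level or acceptor odds, or with the 2 most read isoforms swapped. Swaps were made only in genes whose most read isoform was well read and well above the second. The simulated libraries held no B1/B2 or shared-isolate effect. In them, 167 of 200 changed genes were recovered with 4 false calls among 6693 genes, 177 of 200 in usage and 117 of 200 in acceptor choice. These rates do not cover the B1/B2 and isolate structure of the real libraries. The usage rate does not cover smaller shifts or genes with few reads.

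Deviations of same-numbered libraries had r = 0.488, 0.161 and 0.848 for numbers 1, 2 and 3, replicate 3 being B2 in both genotypes. B1 libraries of different numbers had r = 0.326 and 0.544, so the numbers and the B1 and B2 labels cannot be told apart by this check. A replicate block was tried. Python 3.11.15 with pandas 2.3.3, numpy 2.4.6, scipy 1.17.1 and matplotlib 3.10.9 did the rest.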

Additional observations from a re-analysis of the deposited data

How the results depend on the processing

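SERPINB1 and SERPINB2, under either label and summed, kept their direction in all alternatives run and were called in all 6 runs without a library (log2 fold change -2.11 to -1.82 for SERPINB1, and -3.69 to -3.08 for SERPINB2 with both labels, highest edgeR adjusted p = 0.0216 and 0.00343). They lost the call without the B1/B2 term and with isolate 2 summed, where 0 members and 0 member isoforms were called. Leaving out a library gave 3 to 4 called members and 11 to 16 called isoforms. Of the 4 SERPINB1 models concerned, 3 lost the call when wild-type replicates 2 or 3, or S34F replicates 1 or 3, were left out in turn, 2 of them not in the run without S34F replicate 1. The remaining model lost it without S34F replicates 1 or 3, and fell under the filter, untested, in each of the 3 runs without a wild-type library (edgeR adjusted p = 0.0652 to 0.248 where tested and lost). SERPINB5 was called higher in 1 run alone, without S34F replicate 1 (log2 fold change 1.08). SERPINB6 changed sign without the filter on low counts (log2 fold change -0.0048), where the median over all genes moved from 0.02 to -0.16. DESeq2, DESeq2 size factors and the B1 libraries alone changed no member's call. SERPINB3 and SERPINB4 could not be summed, having no rows.

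Counts over all features moved more. The 228 called genes became 491 without the filter, 2 without the B1/B2 term, 79 in B1 alone, 0 with isolate 2 summed (287 with an unadjusted p below 0.05) and 67 to 655 without a library. The 595 called isoforms became 3 without the term, 184 in B1 alone, 0 with isolate 2 summed (932 below 0.05) and 203 to 1339 without a library. The 14 genes called in usage became 4 without the filter, 0 without the term (47 below 0.05), in B1 alone (69) and with isolate 2 summed (25), and 0 to 9 without a library. The 141 called donors became 30 without the term, 24 in B1 alone, 23 with isolate 2 summed, 0 by limma (758 below 0.05) and 22 to 111 without a library. The 19 called 3′ ends became 1, 10 and 0 (105 below 0.05) in the same designs, 0 by limma (173) and 7 to 20 without a library. With the replicate block in place of the B1/B2 term, 89 donors and 10 ends were called, and no member gene's call changed. The share of SERPINB10-labelled reads on SERPINB2 was 87.06% at an overlap of at least 90%. The causes were not tested. Depth limits the choices: S34F libraries had 17, 34 and 127 reads on SERPINB2, and 9, 18 and 16 on SERPINB8.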
